A study of Rattus norvegicus with 9 samples.

Results

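The genes described here encode the protein machinery of pre-mRNA splicing. They are Sm and U snRNP proteins, SF3A and SF3B subunits, PRPF proteins, SR proteins, hnRNP proteins, U2AF, TRA2, DDX39B and ZMAT2. The splicing and RNA-binding proteins Nova and Elavl, neuronal but for the ubiquitous Elavl1, complete the set. All of these genes were picked by symbol from the transcript clusters (array probe sets that each stand for 1 gene locus) annotated with 1 symbol. The symbol rule itself holds no measured value, but it was set with earlier results of these data known. The rule found 70 genes among the 18166 genes with such a cluster. Hnrnpa3 and Snrpe each had a pair of clusters, and the cluster of highest mean level was used. No single-symbol cluster carried U2af1. Of the 70 genes, 67 passed the filter on low signal and were tested.

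The study asked how Set-β alters gene expression in retinal ganglion cells, the neurons whose axons form the optic nerve. Ganglion cells of postnatal day 4 Sprague Dawley rats were purified by immunopanning and electroporated with mCherry (the control), wild-type Set-β or myr-Set-β. All 9 samples, controls included, also received pMAX-GFP, were sorted for GFP the next day and were then cultured for 2 more days. RNA was taken 3 days after transfection, amplified and hybridized to 1 array per sample, with 3 arrays in each of the groups called mCherry, wt_Set and myr_Set below. The constructs were introduced by transient electroporation, so each sample is a sorted, transfected culture rather than an animal line. The labels call the replicates biological but name no separate litters or cultures, so each p-value reflects only how far these particular arrays scatter, and that scatter may be technical.

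Splicing removes introns from pre-mRNA in a stepwise assembly. U1 and U2 snRNPs, each built on a ring of Sm proteins, mark the splice sites, U2AF and the SF3A and SF3B complexes fix U2 at the branch point, and the tri-snRNP with its PRPF proteins brings in the catalytic core. SR proteins mostly favour, and many hnRNP proteins mostly oppose, the use of nearby exons. Nova proteins and the neuronal Elavl proteins set exon choices and mRNA stability particular to neurons. Set-β is a nuclear and cytoplasmic protein known as an inhibitor of protein phosphatase 2A and as a histone chaperone.

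The labelled cell type was checked against marker genes. Of 16 ganglion cell markers, 15 were above the background on all 9 arrays, background being each array's median over 1128 odorant receptor clusters (log2 5.34 to 5.93). They included Rbpms, a pan-ganglion cell RNA-binding protein, and the POU-domain factors Pou4f1, Pou4f2 and Pou4f3. Most markers of other cells passed the same bar, so passing it does not tell cell types apart. For amacrine and horizontal cells 10 of 11 passed, for glia 8 of 9, and for microglia and macrophages 10 of 12. For photoreceptor and bipolar cells 7 of 9 passed, and for vascular cells and fibroblasts 4 of 8. The proliferation list was near background, with 3 of its 8 genes above it on every array. Among the 70 splicing genes, 69 were above background on all 9 arrays, and Snrpgl2 was below it on 1 wt_Set array. Spread of signal (10th to 90th percentile of log2 values) differed between arrays, at 4.29 to 4.54 in mCherry, 4.12 to 4.21 in wt_Set and 3.82 to 4.46 in myr_Set. It was lowest on myr_Set replicate 1, an array that stood apart: its correlation over clusters with myr_Set replicate 3 was 0.863, against 0.925 to 0.955 for the other pairs within a group.

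Splicing genes as a group had lower signal in wt_Set than in mCherry and, to an extent that differed from array to array, in myr_Set. Their median log2 level was 9.02, 8.49 and 8.90 on the mCherry arrays. On the wt_Set arrays it was 8.23, 8.29 and 8.32, so each lay below every control array, an order that did not hold after rescaling: wt_Set replicate 3 was then at 8.47 against 8.46 for mCherry replicate 2 (quantile) and at 8.44 against 8.42 (cyclic loess). The myr_Set arrays read 7.62, 8.27 and 8.87, running from the lowest of the series to within the control range. The medians were mostly higher on arrays with a wider spread of signal, and the part of that spread in the differences was not tested. In such bulk samples, fewer cells of a type and less RNA per cell cannot be told apart.

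**Figure D1:**
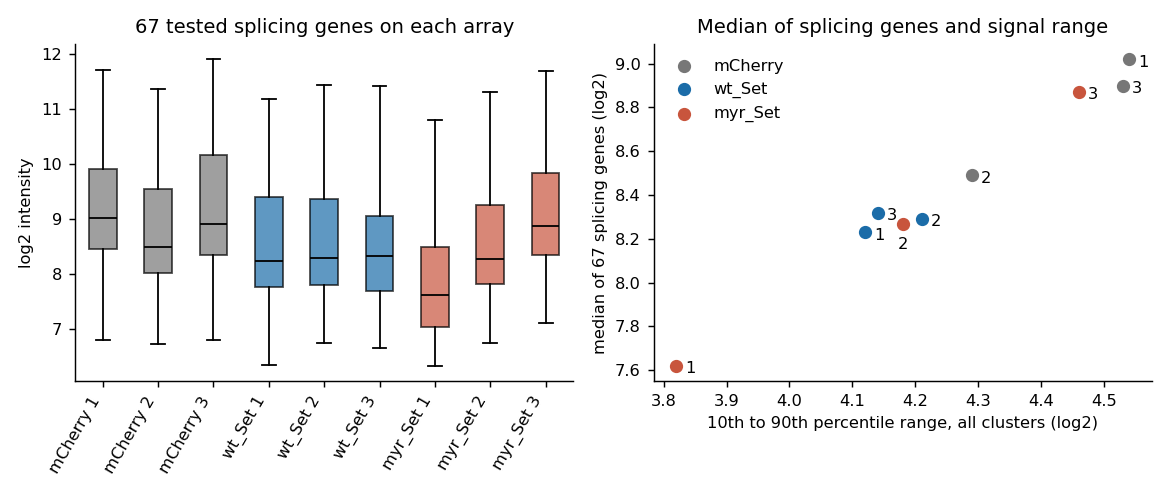
Log2 level of the tested splicing genes on each of the 9 arrays (left; box, quartiles and median; whiskers, lowest and highest gene) and the median of each array against its spread of signal (right; numbers are replicates). The wt_Set medians lie between 8.23 and 8.32, below all mCherry medians as deposited, and the myr_Set medians run from 7.62 to 8.87.

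Wild-type Set-β against mCherry addresses what added Set-β changed. Of the 67 tested splicing genes, 66 had a lower mean in wt_Set, or 98.5%, against 65.5% of the 18343 clusters tested. The median log2 difference was -0.53, with the middle of the genes between -0.70 and -0.42, and the median over all clusters was -0.18. In 46 genes, or 68.7%, every wt_Set array was below every mCherry array, a pattern seen in 26.4% of all clusters. None was higher without overlap, against 7.31% of all clusters. The lowest difference was -1.11 for Hnrnpul2 and the only one above 0 was 0.23 for Sf3a2.

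No splicing gene passed limma's moderated test at an adjusted p of 0.05 in wt_Set against mCherry, and neither did any other cluster (0.0% called). The smallest Benjamini-Hochberg adjusted p was 0.447. At an unadjusted p of 0.05, 10 splicing genes passed, all lower (14.9%), against 10.2% of clusters in either direction, 7.13% lower and 3.04% higher. That count ranged from 2 to 39 when 1 array was left out, and the count over all 18343 clusters from 880 to 3862 (1865 with all arrays). Leaving out mCherry replicate 1, 2 or 3 gave 4, 13 or 2 splicing genes, against 880, 2796 or 992 clusters. Leaving out wt_Set replicate 1, 2 or 3 gave 5, 6 or 4, against 1314, 1052 or 914 clusters. Leaving out myr_Set replicate 1 or 3 gave 39 or 21, against 3862 or 3222 clusters. The myr_Set arrays enter through the shared estimate of spread.

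The size of the shift depended on the scaling. The median difference of the splicing genes came to -0.25 under quantile normalization and to -0.26 under cyclic loess, and that of all clusters to -0.03 under both. Splicing genes lower without overlap numbered 19 of 67 (28.4%) after quantile normalization, against 11.7% of clusters, and 17 (25.4%) after cyclic loess, against 12.1%. Of all clusters at an unadjusted p of 0.05, 29.9% were higher in wt_Set as deposited, while quantile normalization gave 62.1% and cyclic loess 54.5%. The 66 genes below 0 became 60 and 59.

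Myr-Set-β against mCherry gave a similar median, with a much wider spread between the myr_Set arrays than between the wt_Set arrays. The median difference was -0.62, with the middle of the genes between -0.74 and -0.40, against -0.16 for all clusters. Of the 67 genes, 65 were below 0 (97.0%, against 63.9% of clusters). Only 7 (10.4%) were lower without overlap, against 6.85% of clusters: Zmat2, Tra2b, Prpf18, Ddx39b, Hnrnpdl, Elavl1 and Hnrnpa1. None was higher without overlap, against 4.55% of clusters. Without myr_Set replicate 3 that count of 7 was 55, against 37.5% of clusters, and without mCherry replicate 2 it was 30, against 23.7%.

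In the same comparison no splicing gene and no cluster (0.0%) reached an adjusted p of 0.05 in limma, where the smallest adjusted p was 0.447 among the splicing genes and 0.332 over all clusters. At an unadjusted p of 0.05, 7 splicing genes passed, all lower (10.4%, against 9.79% of clusters in either direction, 6.92% lower and 2.87% higher). Leaving out myr_Set replicate 1, 2 or 3 made that number 2, 3 or 49, against 642, 1033 or 6141 of 18343 clusters (1796 with all arrays). Leaving out mCherry replicate 1, 2 or 3 made it 1, 10 or 2, against 741, 2729 or 994 clusters. Leaving out wt_Set replicate 2 made it 4, against 1258 clusters. The median difference was -0.22 without myr_Set replicate 1 and -0.91 without myr_Set replicate 3. Quantile normalization made it -0.34 and cyclic loess -0.24, with -0.03 and -0.01 for all clusters. Of all clusters at an unadjusted p of 0.05, 29.3% were higher as deposited, while quantile normalization gave 56.8% and cyclic loess 57.7%.

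The spread between myr_Set replicates was wider in these genes than in clusters at large. The median SD over the 3 arrays was 0.72 log2 units for the splicing genes in myr_Set, against 0.36 for all clusters. In wt_Set these were 0.18 and 0.19, and in mCherry 0.27 and 0.28. Replicate 1 of myr_Set lay below the mean of replicates 2 and 3 in 65 of 67 genes, by a median of -1.13, while all clusters had -0.20. Clusters in the highest of 10 equal bins of level had -0.84 between the same arrays. The gap was widest for the hnRNP proteins (median -1.28) and for the small class of U2AF, TRA2, DDX39B and ZMAT2 (-1.24), and smallest for the Nova and Elavl proteins (-0.84) and the Sm and U snRNP proteins (-0.85). After quantile normalization the median gap of the splicing genes was -0.74, against -0.01 for all clusters and -0.34 in the highest bin. After cyclic loess it was -0.45, against 0.01 and 0.05. As deposited, the corresponding gap of replicate 1 was 0.06 in wt_Set and 0.20 in mCherry.

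Single genes differed widely in that gap. Srsf3, a small SR protein that also acts in mRNA export, had 7.01 on myr_Set replicate 1 against 9.25 and 9.51, a gap of -2.37. Hnrnph2 (-2.12), Hnrnpu (-2.11) and Srsf2 (-2.02) were next. At the other end, Sf3a2 (0.20) and Prpf31 (0.19) were no lower there than on the other arrays, and Zmat2 (-0.03), Elavl3 (-0.10), Nova1 (-0.12), Prpf4 (-0.12) and Hnrnpf (-0.15) differed by little.

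Because brighter clusters differed more between groups, each splicing gene was also set against the clusters of its own bin of mean level (10 bins of equal size). In wt_Set against mCherry, 56 of 67 genes (83.6%) lay below the median of their bin, and the median distance was -0.21. This was 55 after quantile normalization (-0.19) and 56 after cyclic loess (-0.21). In myr_Set against mCherry 56 genes lay below, with a median distance of -0.20. The counts were 57 and 56 under the other scalings and 50 without myr_Set replicate 1. In the highest bin, which held 20 splicing genes, their median difference was -0.59 in wt_Set, against -0.41 for all clusters there, and -0.64 against -0.47 in myr_Set. Both comparisons share the mCherry arrays, so their values are not independent.

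**Figure D2:**
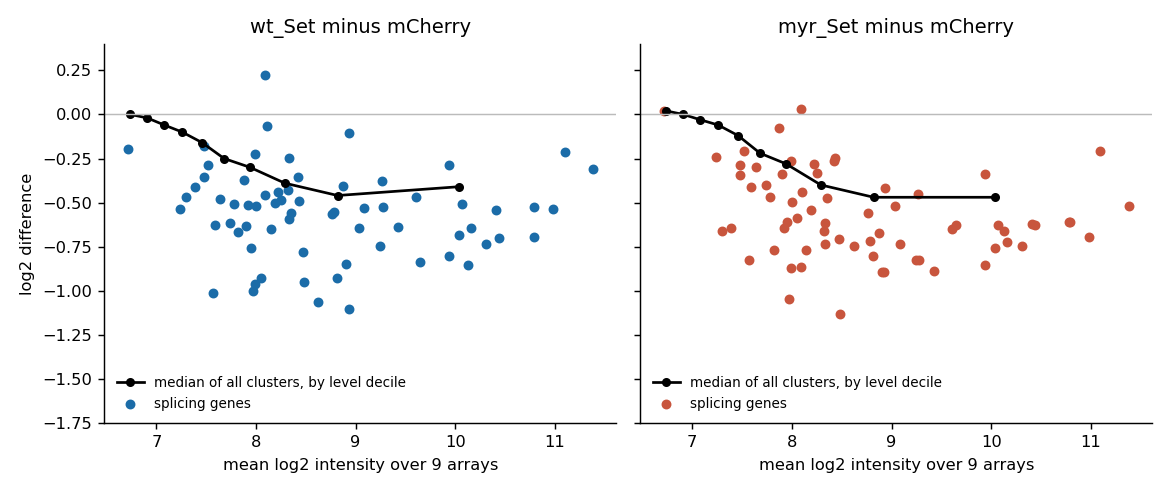
Log2 difference of each tested splicing gene from mCherry (points) against its mean log2 level, with the median of all clusters in each of 10 level bins as a line, for wt_Set and for myr_Set. Of 67 genes, 56 lie below the median of their own bin in each comparison, and that median goes from near 0 in the dimmest bin to -0.41 and -0.47 in the brightest.

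Among the Sm and U snRNP proteins, 10 of 11 genes were tested. All 10 were below 0 in wt_Set (median -0.42, 5 lower without overlap) and 9 in myr_Set (median -0.43, none without overlap), where quantile normalization left 9 and 6 below 0 and cyclic loess 8 and 6. Its medians were then -0.16 and -0.16, and -0.14 and -0.04. Over all clusters, the shares lower without overlap were 26.4% and 6.85%. Snrpepl2, annotated as a copy of the Sm protein gene Snrpe, had the lowest value of the class in wt_Set. It read 8.23, 7.92 and 8.39 in mCherry, 6.66, 7.33 and 7.51 in wt_Set, and 6.57, 7.45 and 8.04 in myr_Set. All wt_Set arrays were below the controls, while myr_Set replicate 3 overlapped them. The difference was -1.02 ± 0.37 (SE of the fit, n = 3 per group; limma adjusted p = 0.447) in wt_Set and -0.83 ± 0.37 in myr_Set.

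Snrpb encodes the Sm B protein and read 8.55, 8.56 and 8.93 in mCherry, 8.07, 8.29 and 8.21 in wt_Set, and 8.29, 8.21 and 8.79 in myr_Set. Its wt_Set arrays lay below the controls, by -0.49 ± 0.20. Snrpf, the Sm F protein and the least different of the class, read 6.80, 6.71 and 6.80 in mCherry, 6.34, 6.74 and 6.64 in wt_Set, and 6.54, 6.74 and 7.10 in myr_Set. All groups of Snrpf overlapped, with differences of -0.20 ± 0.19 and 0.02 ± 0.19. At a mean level of 6.71 it was also the tested gene just inside the filter of 6.65, and Srsf12, at 6.61, was just outside. The second cluster of Snrpe gave -0.50 ± 0.37 and -0.68 ± 0.37, against -0.31 ± 0.31 and -0.52 ± 0.31 for the cluster used. Near-identical copies of Snrpe were not separated here.

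The SF3A and SF3B subunits, which hold U2 at the branch point, included the only gene above 0 in wt_Set. Of 8 tested, 7 were below 0 in each comparison (medians -0.56 and -0.52), where quantile normalization left 6 and 7 and cyclic loess 6 and 6. In wt_Set 6 were lower without overlap (26.4% of all clusters were), in myr_Set none (6.85%). Sf3a3, a subunit of the SF3A trimer, read 9.12, 8.14 and 8.70 in mCherry. In wt_Set it read 7.80, 7.94 and 7.22 and in myr_Set 6.76, 7.75 and 8.32, so the first group lay below all controls and the second overlapped them. The differences were -1.0 ± 0.41 and -1.05 ± 0.41 (limma adjusted p = 0.447 for both).

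Sf3a2, another subunit of the same trimer, was the exception. It read 8.0, 7.89 and 8.13 in mCherry, 8.09, 8.29 and 8.32 in wt_Set, and 8.17, 8.10 and 7.84 in myr_Set. These groups overlapped, and the differences were 0.23 ± 0.16 and 0.03 ± 0.16 (limma adjusted p = 0.483 and 0.930), with 0.49 in wt_Set after quantile normalization. Sf3b1, the largest SF3B subunit, had -0.53 ± 0.36 and -0.74 ± 0.36.

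All 11 PRPF proteins, most of them tri-snRNP or catalytic-core factors, were below 0 in both comparisons as deposited (medians -0.46 and -0.64), and Prpf19 alone turned positive, in wt_Set, under the other scalings. Without overlap, 6 were lower in wt_Set and 1 in myr_Set, against 26.4% and 6.85% of all clusters. Prpf3, a U4/U6 snRNP protein, read 8.62, 7.95 and 8.36 in mCherry, 7.97, 7.76 and 7.66 in wt_Set, and 7.34, 7.66 and 8.0 in myr_Set. One array of each Set group overlapped the lowest control, and the differences were -0.52 ± 0.23 and -0.64 ± 0.23 (limma adjusted p = 0.447). Prpf18, which acts at the second catalytic step, read 7.86, 7.63 and 7.74 in mCherry, 7.57, 7.13 and 7.29 in wt_Set, and 6.49, 7.25 and 7.55 in myr_Set. It was lower on every Set array than on any control, by -0.41 ± 0.27 and -0.65 ± 0.27.

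Prpf38b read 8.94, 7.83 and 8.12 in mCherry, 7.81, 7.49 and 7.59 in wt_Set, and 6.74, 7.53 and 8.31 in myr_Set. Averaged over both Set groups its difference was the largest of the class, at -0.67 ± 0.41 and -0.77 ± 0.41, though Prpf38a in wt_Set (-0.76) and Prpf39 in myr_Set (-0.87) had larger ones. Prpf31, which joins U4/U6 to U5, had the smallest on that average, though Prpf19 in wt_Set and Prpf4 in myr_Set (-0.21) were closer to 0. Its 7.86, 7.43 and 7.61 in mCherry overlapped with 7.38, 7.40 and 7.59 in wt_Set and 7.47, 7.37 and 7.19 in myr_Set, for -0.18 ± 0.17 and -0.29 ± 0.17. Prpf19, the ubiquitin ligase of the PRP19 complex, read 8.46, 8.12 and 8.25 in mCherry, 7.97, 8.02 and 8.65 in wt_Set, and 7.36, 7.94 and 8.20 in myr_Set. Only wt_Set replicate 3 was above all controls. The difference was -0.06 ± 0.27 in wt_Set, or 0.23 after quantile normalization, and -0.44 ± 0.27 in myr_Set. Prpf8, the core protein of the catalytic centre, had -0.41 ± 0.39 and -0.67 ± 0.39.

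Of the SR proteins, 10 of 11 were tested and all 10 were below 0 in both comparisons as deposited (medians -0.52 and -0.61), though Srsf2 was at 0.08 in wt_Set after quantile normalization and 0.06 after cyclic loess. Without overlap 7 were lower in wt_Set and none in myr_Set (26.4% and 6.85% of all clusters were). Srsf3 read 9.47, 9.22 and 9.78 in mCherry, 8.33, 8.61 and 8.98 in wt_Set, and 7.01, 9.25 and 9.51 in myr_Set. The wt_Set arrays lay below the controls, and in myr_Set replicate 1 alone did. The differences were -0.85 ± 0.58 and -0.90 ± 0.58, with the second -0.10 without myr_Set replicate 1. Srsf7 had the lowest wt_Set value of the class, at -0.93 ± 0.53.

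Srsf9 had the smallest difference of the SR proteins averaged over both Set groups, nearly level with Srsf4 (-0.48 and -0.30). In wt_Set alone Srsf9 was near the class median of -0.52, and Srsf2 (-0.24 ± 0.50) was closest to 0. Srsf9 read 7.31, 7.17 and 8.0 in mCherry, 6.69, 6.93 and 7.26 in wt_Set, and 6.59, 7.22 and 7.94 in myr_Set. The groups overlapped, with -0.53 ± 0.36 and -0.24 ± 0.36, and the second turned to 0.09 without myr_Set replicate 1 and 0.01 without mCherry replicate 3. Srsf12, untested, had 0.24 ± 0.16 and -0.04 ± 0.16.

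The hnRNP proteins, the largest class, were below 0 in both comparisons in all 18 cases as deposited (medians -0.64 and -0.65), though Hnrnpa3 alone turned positive under the other scalings. In wt_Set 16 of the 18 were lower without overlap, where 26.4% of all clusters were, and in myr_Set 2 were, where 6.85% of all clusters were. Hnrnpul2, a relative of the nuclear matrix protein hnRNP U, read 9.63, 9.02 and 10.13 in mCherry, 8.95, 8.54 and 7.98 in wt_Set, and 7.95, 8.95 and 9.20 in myr_Set. Its wt_Set arrays lay below the controls, by -1.11 ± 0.41 (46.4% of the control level; limma adjusted p = 0.447). The myr_Set arrays overlapped them, with -0.89 ± 0.41.

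Hnrnpa3 differed least of the class in both comparisons. It read 11.19, 11.21 and 11.31 in mCherry, 11.16, 10.97 and 10.93 in wt_Set, and 10.80, 11.09 and 11.20 in myr_Set. Every wt_Set array was below the controls by a small margin, for -0.22 ± 0.16, while myr_Set overlapped, for -0.21 ± 0.16. Quantile normalization turned these to 0.08 and 0.07, cyclic loess to 0.12 and 0.25. The other Hnrnpa3 cluster, whose mean was under the filter, had -0.59 ± 0.20 in both, so the pair disagreed on size, and processed copies of the gene were not separated. Hnrnpa1, an exon-silencing hnRNP with many copies in the genome, read 11.31, 11.36 and 11.51 in mCherry, 10.89, 10.72 and 10.96 in wt_Set, and 9.57, 11.25 and 11.29 in myr_Set. Every Set array was lower than every control.

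**Figure D3:**
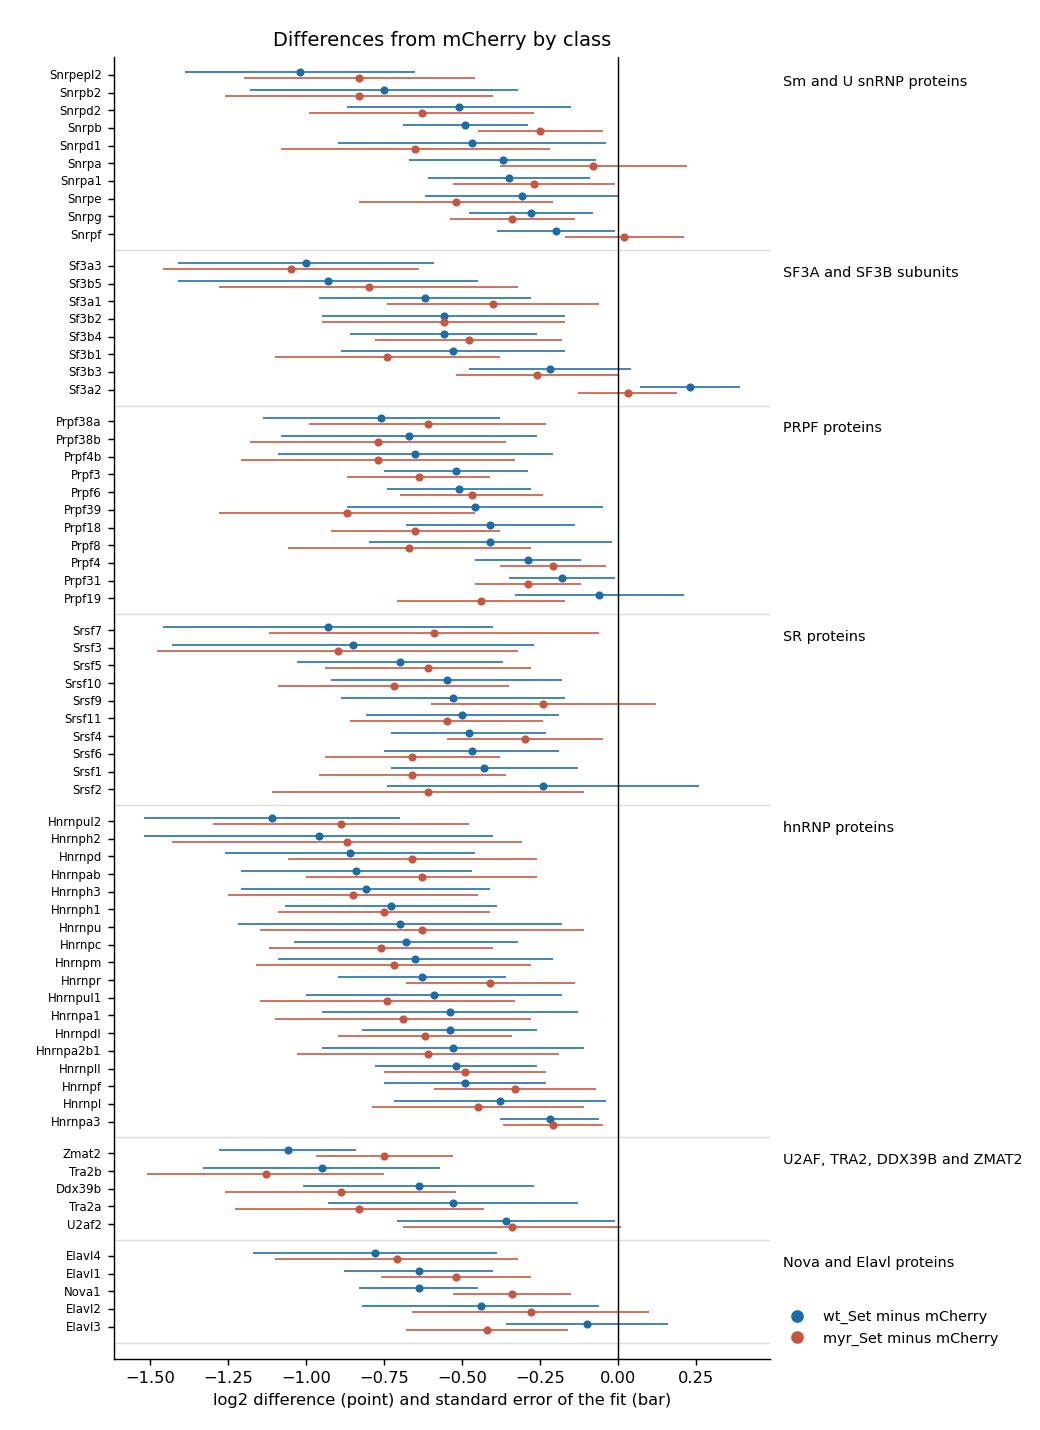
Log2 difference from mCherry for each of the 67 tested splicing genes, grouped by class, with the standard error of the fit as bars (3 arrays per group). Nearly all points lie left of 0, and Sf3a2 is the only gene right of 0 in wt_Set.

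The remaining general factors were U2af2, Tra2a, Tra2b, Ddx39b and Zmat2, all 5 below 0 in both comparisons under each of the 3 scalings (medians -0.64 and -0.83 as deposited, -0.29 and -0.54 by quantile normalization, -0.26 and -0.38 by cyclic loess). Zmat2, a zinc-finger protein of the pre-catalytic spliceosome, had the smallest p of all splicing genes in both. It read 9.09, 9.48 and 9.11 in mCherry, 8.57, 8.0 and 7.92 in wt_Set, and 8.46, 8.28 and 8.69 in myr_Set. All 6 Set arrays were below all controls. The difference was -1.06 ± 0.22 in wt_Set (95% interval -1.57 to -0.55, 47.9% of control; limma adjusted p = 0.447). In myr_Set it was -0.75 ± 0.22 (-1.26 to -0.24; limma adjusted p = 0.447). Leaving out single arrays gave -1.27 to -0.94 and -0.85 to -0.62, and quantile normalization -0.73 and -0.41.

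Tra2b, an SR-like activator of exon inclusion, read 9.63, 8.83 and 9.06 in mCherry, 8.17, 8.15 and 8.35 in wt_Set, and 7.21, 8.08 and 8.83 in myr_Set. Every Set array was below the controls, replicate 3 of myr_Set by less than the rounding of these values. The differences were -0.95 ± 0.38 and -1.13 ± 0.38 (limma adjusted p = 0.447 for both). Its paralog Tra2a read 10.14, 9.38 and 9.67 in mCherry, 9.51, 9.31 and 8.79 in wt_Set, and 8.02, 9.08 and 9.62 in myr_Set. Here both Set groups overlapped the controls, with -0.53 ± 0.40 and -0.83 ± 0.40.

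Ddx39b, the helicase UAP56 that acts in spliceosome assembly and mRNA export, read 10.29, 9.62 and 9.88 in mCherry, 9.43, 9.43 and 9.01 in wt_Set, and 8.15, 9.40 and 9.58 in myr_Set. All Set arrays were below the controls, by -0.64 ± 0.37 and -0.89 ± 0.37. U2af2, which binds the polypyrimidine tract before the 3′ splice site, read 7.96, 7.53 and 7.64 in mCherry, 7.98, 6.73 and 7.35 in wt_Set, and 7.00, 7.16 and 7.94 in myr_Set. Its groups overlapped, with -0.36 ± 0.35 and -0.34 ± 0.35.

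Of the Nova and Elavl proteins, 5 of 6 were tested and all 5 were below 0 as deposited (medians -0.64 and -0.42). Under cyclic loess Elavl3 turned above 0 in both comparisons (0.26 and 0.01), and Elavl2 in myr_Set only (0.03). Under quantile normalization only Elavl3 did, in wt_Set (0.24). In wt_Set 3 of the 5 were lower without overlap (26.4% of all clusters were): Nova1, Elavl4 and the ubiquitous Elavl1. In myr_Set only Elavl1 was (6.85% of all clusters), and none of the neuronal genes. Nova1, a neuron-specific regulator of alternative exons, read 8.58, 8.12 and 7.97 in mCherry, 7.66, 7.61 and 7.49 in wt_Set, and 7.81, 7.80 and 8.05 in myr_Set. Its wt_Set arrays lay below both other groups, by -0.64 ± 0.19 against mCherry (95% interval -1.07 to -0.20; limma adjusted p = 0.447). In myr_Set it was -0.34 ± 0.19, overlapping the controls. Nova2, untested, had -0.23 ± 0.18 and -0.08 ± 0.18.

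Elavl1 (HuR), the ubiquitous member of the mRNA-stabilizing Elavl family, read 9.46, 9.42 and 9.37 in mCherry, 8.84, 8.77 and 8.71 in wt_Set, and 8.34, 8.99 and 9.36 in myr_Set. Every Set array was below the controls, by -0.64 ± 0.24 and -0.52 ± 0.24 (limma adjusted p = 0.447 for both). The neuronal Elavl4 (HuD) read 9.49, 8.49 and 8.92 in mCherry, 8.32, 8.41 and 7.82 in wt_Set, and 7.44, 8.53 and 8.80 in myr_Set. Its wt_Set arrays were below the controls, by -0.78 ± 0.39, and its myr_Set arrays overlapped them, with -0.71 ± 0.39.

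Elavl2 (HuB) read 9.12, 7.94 and 8.32 in mCherry, 8.14, 8.11 and 7.80 in wt_Set, and 7.56, 8.11 and 8.85 in myr_Set. The groups overlapped, with -0.44 ± 0.38 and -0.28 ± 0.38, and the second was 0.03 after cyclic loess. Elavl3 (HuC) read 9.65, 8.80 and 8.87 in mCherry, 9.0, 9.13 and 8.88 in wt_Set, and 8.62, 8.41 and 9.03 in myr_Set. Elavl3 groups overlapped too, with -0.10 ± 0.26 and -0.42 ± 0.26, and its wt_Set difference was 0.24 after quantile normalization, 0.26 after cyclic loess and 0.17 without mCherry replicate 1.

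**Figure D4:**
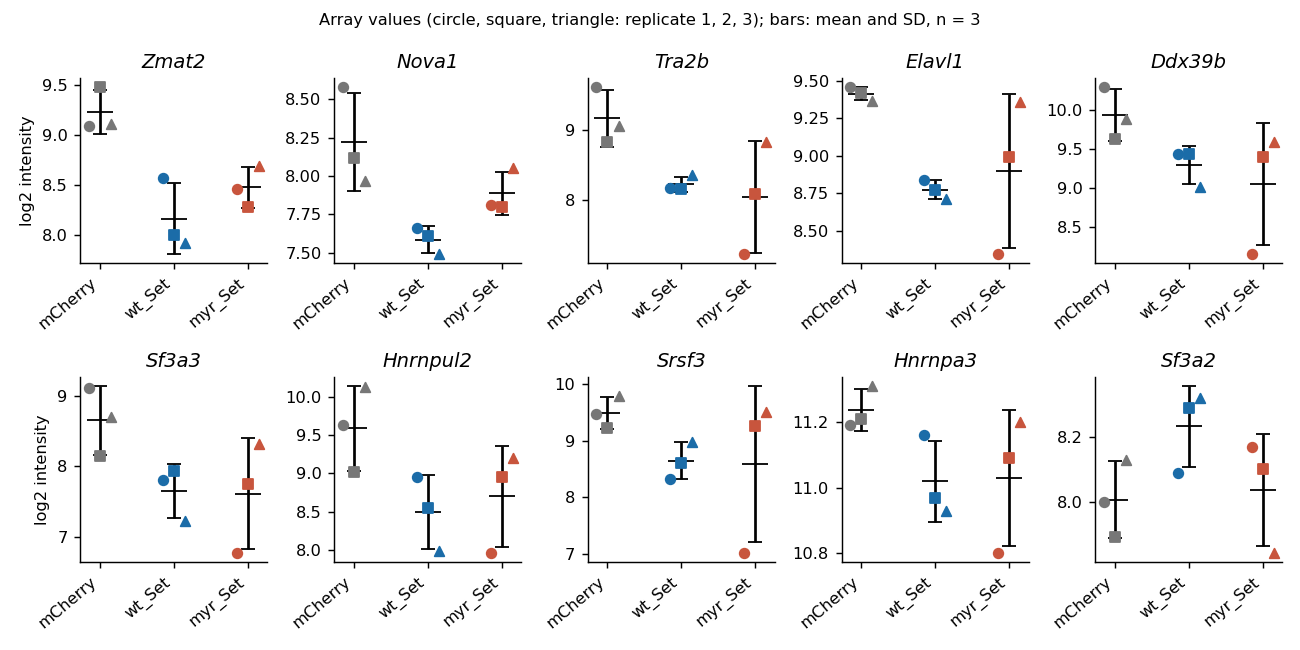
Log2 level of selected splicing genes on each array by group (circle, square and triangle are replicates 1, 2 and 3), with the mean and SD of 3 arrays as bars. Axes are cropped to each gene. For Zmat2 all 6 Set arrays lie below the 3 mCherry arrays, for Sf3a2 the groups overlap, and for Nova1 the wt_Set arrays lie below both other groups.

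Myr-Set-β against wild-type Set-β asks whether the altered form differed from the wild type. Of the 67 genes, 36 were below 0 and 31 above, with a median of -0.04, against 0.01 for all clusters. No splicing gene and no cluster (0.0%) passed an adjusted p of 0.05 in limma. None passed at an unadjusted p of 0.05, against 1.13% of clusters (0.567% lower and 0.567% higher). Only Nova1 was higher without overlap in myr_Set (2.63% of clusters were), by 0.30 ± 0.19 (95% interval -0.14 to 0.73). None was lower without overlap (1.76% of clusters). The interval for Zmat2, -0.19 to 0.83 around 0.32, and that for Srsf7, -0.85 to 1.54 around 0.34, show how wide the differences remained.

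That balance rested on single myr_Set arrays. Without replicate 1, only 4 genes were below 0, the median was 0.31 and 21 genes were higher without overlap, against 15.8% of clusters. Without replicate 3, 59 were below 0, the median was -0.32 and 11 were lower without overlap, against 10.3% of clusters.

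Other splicing genes outside the symbol rule mostly had lower means in both Set groups as deposited, as did 65.5% and 63.9% of all clusters. All clusters in the highest level bin had medians of -0.41 in wt_Set and -0.47 in myr_Set. The part of level in the differences of these lists was not tested. Of 21 tested further U snRNP and tri-snRNP proteins, 21 were below 0 in wt_Set and 20 in myr_Set (medians -0.44 and -0.42), with 3 and 4 lower at an unadjusted p of 0.05, against 7.13% and 6.92% of all clusters. For Lsm8, of the U6-binding LSm ring, the differences were -0.91 ± 0.32 and -0.91 ± 0.32. Among 21 PRP19 complex and activation factors, 19 were below 0 in each comparison (medians -0.54 and -0.52), and 4 and 2 were lower at that p (again 7.13% and 6.92% of all clusters). Bcas2, a core PRP19 complex subunit, had -0.85 ± 0.25 in wt_Set.

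The kinases and phosphatases of SR proteins, 8 tested, were all below 0 in both (medians -0.55 and -0.71), with 1 and 3 lower at an unadjusted p of 0.05 (7.13% and 6.92% of all clusters were). Srpk1 had -0.93 ± 0.38 in wt_Set and Srpk2 -0.90 ± 0.34 in myr_Set. Both phosphorylate SR proteins. Exon junction and export factors, 15 tested, were below 0 in 15 and 14 cases (medians -0.56 and -0.49), with none at that p. The 33 other splicing regulators were all below 0 in both (medians -0.50 and -0.59), with 1 and 2 at that p (7.13% and 6.92% of all clusters). They included the paraspeckle proteins Pspc1 (-0.77 ± 0.26 in wt_Set) and Nono (-1.10 ± 0.42 in myr_Set). Under quantile normalization the 5 lists had 19 and 18 of 21, 18 and 19 of 21, 8 and 8 of 8, 12 and 13 of 15, and 28 and 30 of 33 genes below 0, in the order above, with medians of -0.29 to -0.19 in wt_Set and -0.45 to -0.23 in myr_Set. No gene of these lists passed an adjusted p of 0.05 (limma; 0.0% of clusters did).

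Some marker lists of the cells also differed in median between the groups. No tested marker passed an adjusted p of 0.05 in any comparison (limma, 0.0% of clusters did). All 15 tested ganglion cell markers were below 0 in both comparisons as deposited (medians -0.51 and -0.50), against 65.5% and 63.9% of all clusters. After quantile normalization 14 and 15 were (medians -0.20 and -0.31), and after cyclic loess 14 and 11 (-0.18 and -0.22). Their summed intensity was 11797 to 20268 in mCherry, 7703 to 13287 in wt_Set and 8028 to 14360 in myr_Set. Pou4f1 itself read 9.30, 8.02 and 8.48 in mCherry, 8.52, 8.14 and 7.95 in wt_Set, and 7.49, 8.12 and 8.13 in myr_Set, and its groups overlapped. Of 12 microglia and macrophage markers, 10 were above background on all arrays, and the summed intensity was 1496 to 2276, 1595 to 2545 and 1591 to 2313 in the same order. Of the 9 tested, 2 were below 0 in each comparison as deposited (medians 0.11 and 0.04). After either rescaling 1 was, with medians of 0.39 and 0.15 (quantile) and 0.39 and 0.32 (cyclic loess). Cx3cr1, a microglial receptor, read 6.32, 6.90 and 6.47 in mCherry, 7.12, 7.35 and 7.39 in wt_Set, and 7.38, 7.17 and 7.18 in myr_Set, higher on every Set array. Lyz2, a macrophage lysozyme, read 7.43, 7.97 and 8.46 in mCherry, 5.85, 8.55 and 7.91 in wt_Set, and 4.76, 7.08 and 7.57 in myr_Set, low on replicate 1 of each group. Glial markers were above background in 8 of 9 measured cases, with sums of 1014 to 5113, 833 to 4135 and 1087 to 4839, and Vim, an intermediate filament of glia and other cells, was low on replicate 1 of each group (8.60, 7.84 and 8.39, against 11.15 to 12.13 elsewhere). So were Pdgfrb, a pericyte receptor (7.06, 7.33 and 7.25, against 8.37 or more), and Cd68, of macrophage lysosomes (7.23, 7.44 and 7.10, against 8.21 or more). Of 6 tested amacrine and horizontal cell markers, 5 were below 0 in wt_Set and 4 in myr_Set as deposited (medians -0.46 and -0.40). For amacrine and horizontal cells, 10 of 11 markers were above background on all arrays, with sums of 1437 to 1975, 1237 to 1428 and 1174 to 1633. For photoreceptor and bipolar cells 7 of 9 were (631 to 688, 677 to 708 and 636 to 667), and for vascular cells and fibroblasts 4 of 8 were (632 to 1556, 720 to 1149 and 810 to 1349). The part of these cell markers in the splicing gene differences was not tested.

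Promoter sequence was not used by the symbol rule, and the promoters of these genes were varied. In the RefSeq promoter table (GRCr8), 65 of the 70 genes had an entry, and the 250 bases before the start were searched on both strands. The ETS core CCGGAAG was found in 17 of 65 (26.2%), against 9.5% of 18999 protein-coding promoters. CCAAT was found in 32 (49.2%, against 35.5%) and TATAAA in 6 (9.2%, against 12.3%). Median GC content was 58.4% (39.2% to 77.2%), against 54.8% for all, and the median number of CpGs was 19 (0 to 42), against 9. These are matches of letters, not sites shown to be bound, and no enrichment was tested.

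Of the promoters that held the ETS core, 3 are printed, chosen after their values were seen because the genes differed in their values: Snrpb2 (-0.75 ± 0.43) and Ddx39b (-0.64 ± 0.37) were lower without overlap in wt_Set, and Sf3a2 (0.23 ± 0.16) was not. Nova1, lower on every wt_Set array, is printed as a promoter with none of the 3 motifs. Sequences run 5′ to 3′ on the gene's strand and end at the base before the start; capitals mark matches to CCGGAAG or its reverse complement CTTCCGG.
Snrpb2, chr3:150852584-150852833 (+ strand, GRCr8): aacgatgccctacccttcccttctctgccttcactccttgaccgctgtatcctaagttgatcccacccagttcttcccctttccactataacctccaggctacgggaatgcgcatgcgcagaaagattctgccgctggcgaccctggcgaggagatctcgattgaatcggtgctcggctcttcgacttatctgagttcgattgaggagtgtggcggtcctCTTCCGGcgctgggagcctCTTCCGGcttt
Sf3a2, chr7:9566206-9566455 (- strand, GRCr8): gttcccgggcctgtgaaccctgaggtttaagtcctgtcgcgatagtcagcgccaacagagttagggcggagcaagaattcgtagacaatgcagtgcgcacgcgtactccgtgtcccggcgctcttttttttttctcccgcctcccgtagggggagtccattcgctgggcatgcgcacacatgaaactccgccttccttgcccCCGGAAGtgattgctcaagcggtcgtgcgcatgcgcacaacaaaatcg
Ddx39b, chr20:3589652-3589901 (- strand, GRCr8): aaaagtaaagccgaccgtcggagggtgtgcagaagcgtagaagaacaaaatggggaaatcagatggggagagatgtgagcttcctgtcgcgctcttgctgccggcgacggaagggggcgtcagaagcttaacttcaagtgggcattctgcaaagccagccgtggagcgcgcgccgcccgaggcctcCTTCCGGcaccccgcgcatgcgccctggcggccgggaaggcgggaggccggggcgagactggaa
Nova1, chr6:69632438-69632687 (- strand, GRCr8): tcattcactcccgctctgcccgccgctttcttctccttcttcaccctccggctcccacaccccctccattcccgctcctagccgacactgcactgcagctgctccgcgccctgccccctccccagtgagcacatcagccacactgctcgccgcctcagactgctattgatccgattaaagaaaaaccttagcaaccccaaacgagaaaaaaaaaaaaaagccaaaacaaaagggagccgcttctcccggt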

How the data were processed

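RNA of 9 samples of sorted rat retinal ganglion cells was measured on Affymetrix Rat Gene 2.0 ST arrays, 3 per group. Per the series' design text and the submitters' processing notes, the authors computed RMA values in Affymetrix Expression Console and normalized each sample to its median; no version is given in the sources used here. The deposited values are linear intensities with a median of 100 on each array, for 36685 transcript clusters, and array number limits the precision. They were log2-transformed. Groups come from the labels. A group-means model over all 9 arrays was fitted with limma 3.58.1 (lmFit and eBayes, R 4.3.3) on the 18343 clusters with mean log2 of at least 6.65, with 3 contrasts, 6 residual degrees of freedom (2.82 prior) and Benjamini-Hochberg adjustment over all of them; no sample was dropped. The script was tested on simulated data. Genes named with values on every array were the 6 of smallest p per comparison, those of small families, and each class's largest and smallest difference from mCherry; beyond these, Hnrnpa1, Pou4f1, Cx3cr1, Lyz2, Vim, Pdgfrb, Cd68 and genes given as single differences were named after their values were seen. The members and lists were chosen with earlier results of these data known. Alternatives were other filters, an offset of 50, quantile and cyclic loess normalization, a 2-group fit, a replicate block, an eBayes trend, the mean of a gene's clusters and leaving out each array.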

Additional observations from a re-analysis of the deposited data

How the results depend on the processing

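Adjusted calls stayed at 0 in every comparison under every alternative run. For myr_Set minus wt_Set, cyclic loess turned the median difference of the splicing genes to 0.03 and its distance from all clusters to 0.01; leaving out 1 array gave medians of -0.32 to 0.31, distances of -0.25 to 0.23 and 4 to 59 genes below 0. For myr_Set minus mCherry, leaving out 1 array gave medians of -0.91 to -0.22 and distances from all clusters of -0.66 to -0.14. Overlap counts and counts against the level bins were set under alternatives chosen after seeing the data. Splicing genes lower without overlap in wt_Set were 19 (quantile, against 11.7% of clusters) and 17 (cyclic loess, 12.1%). Under each scaling 1 was higher, against 13.7% and 13.5% of clusters. Leaving out 1 array gave 46 to 61 lower (29.2% to 40.4% of clusters) and 0 to 1 higher (10.2% to 14.2%). In myr_Set against mCherry those lower were 12 (quantile, against 6.27% of clusters) and 10 (cyclic loess, 6.18%). With 1 array left out they were 7 to 55 (against 8.54% and 37.5% of clusters, without myr_Set replicates 2 and 3). In myr_Set against wt_Set 1 was lower under each scaling (2.56% and 2.23% of clusters) and 2 higher under cyclic loess (2.58%). With 1 array left out, 0 to 11 were lower (3.69% to 10.3% of clusters) and 1 to 21 higher (4.74% to 15.8%). Between 14 and 48 then lay below the median of their level bin. Genes whose difference from mCherry turned sign under cyclic loess were, in wt_Set, Elavl3 (0.26), Prpf19 (0.21), Hnrnpa3 (0.12), Snrpg (0.09), Srsf2 (0.06), Sf3b3 (0.03) and Snrpe (0.02), and in myr_Set Hnrnpa3 (0.25), Snrpa (0.16), Snrpg (0.13), Snrpb (0.10), Snrpa1 (0.08), Elavl2 (0.03), Elavl3 (0.01), Sf3b3 (0.00) and Snrpf (-0.01). Under quantile normalization they were, in wt_Set, Elavl3 (0.24), Prpf19 (0.23), Hnrnpa3 (0.08), Srsf2 (0.08), Snrpg (0.05) and Sf3b3 (0.04), and in myr_Set Snrpa (0.13), Hnrnpa3 (0.07), Snrpb (0.06) and Snrpa1 (0.03). With 1 array left out, of the genes given with values on every array, Elavl3 in wt_Set ran from -0.26 to 0.17, and in myr_Set Elavl2 from -0.62 to 0.05, Sf3a2 from -0.04 to 0.13, Snrpf from -0.13 to 0.15 and Srsf9 from -0.59 to 0.09. The cause of these turns was not tested. Deviations of same-numbered arrays from their group means correlated at -0.07 to 0.38 over clusters, and not every array correlated best with its own number. Vim, Pdgfrb and Cd68 were nevertheless lower on replicate 1 of all 3 groups, so whether arrays of 1 number share a source was not settled. With the replicate number as a block, 10, 6 and 0 splicing genes passed an unadjusted p of 0.05. Over all clusters 1937, 1754 and 251 did. The medians of the splicing genes stayed at -0.53, -0.62 and -0.04, and no adjusted call changed. The fit of wt_Set and mCherry alone gave 41 splicing genes at an unadjusted p of 0.05, against 10. Over all 18343 clusters it gave 4262, against 1865. For myr_Set and mCherry alone the fit gave 3 splicing genes against 7, and 891 clusters against 1796.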
